A study of Mus musculus with 8 samples.

Results

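Glypicans and syndecans are cell-surface proteoglycans, core proteins that carry long heparan sulfate chains. Glypicans are held in the outer leaflet of the membrane by a lipid (GPI) anchor, whereas syndecans span the membrane and have a short cytoplasmic tail. Through their sulfated chains, both families bind Wnt, FGF, BMP and Hedgehog ligands and matrix proteins, and in the brain they take part in axon guidance and in the assembly of excitatory synapses. *Rnf146* encodes a ubiquitin ligase that acts on Axin in the Wnt/β-catenin pathway, and the study asked which genes change in the prefrontal cortex (PFC) when *Rnf146* is overexpressed there.

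The 9 genes described here were chosen by name. They are the glypican genes *Gpc1* to *Gpc6* and the syndecan genes *Sdc2*, *Sdc3* and *Sdc4*, and all 9 were found among the 15039 genes of the deposited table. *Sdc1* had no values and was not analysed here, and it is the unmeasured gene in the list of ligands and partners below. The family was taken up with the difference between the Rnf146 and eGFP libraries already known, including that of *Gpc3*, so the differences of the 9 members are given as a description and not as a test.

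The 8 libraries came from the PFC of wild-type C57BL/6NCrljOri male mice, 4 libraries from mice that received AAV2/1-hsyn-RNF146-eGFP and 4 from mice that received AAV2/1-hsyn-eGFP. The virus was injected bilaterally at the age of 6 weeks, and the tissue was dissected 4 weeks later. Both groups therefore carried the virus and eGFP. The hsyn promoter drives expression in neurons, whereas the RNA was taken from whole tissue, in which fewer cells of a type and less RNA per cell cannot be told apart. According to the study's text, the Rnf146 mice used for RNA sequencing had been found to overexpress Rnf146 and to show social deficits. Whether the libraries came from separate mice is not stated in the labels beyond their replicate numbers, so the spread between them may be partly technical.

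The deposited values were on a log2 scale and ran from 7.86 to 18.8. They had been centred within each pair of libraries with the same replicate number, so that the sum of the eGFP and Rnf146 values of a gene is equal in all 4 pairs. Each gene therefore holds its mean and 4 pair differences (Rnf146 minus eGFP), and the groups do not overlap only when all 4 pairs have the same direction. The scale shrinks the differences of genes with low counts. A small log2 change in the count moves a value by 0.329 of that change at a normalized count of 100, and by 0.740 of it at 1000. The depth of the libraries is unknown. *Rnf146* was higher in all 4 Rnf146 libraries, by 2.64 ± 0.13 on average (SD, n = 4 pairs). Its adjusted p was 3.18e-07 in the limma fit, which held the replicate number as a blocking factor. All 11 genes of the cortical excitatory neuron list had values, with list means between 11.1 and 11.3 in the 8 libraries.

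Of the 9 members, *Gpc3* and *Sdc2* were higher in Rnf146 libraries in all 4 pairs and *Gpc1* was lower in all 4, while the other 6 were mixed. These 3 of 9 members (33.3%) stand beside 20.6% of all genes with the same direction in every pair (10.4% higher and 10.2% lower). In the limma fit, 0 of the 9 reached the threshold for a call, an adjusted p no larger than 0.1, beside 1.25% of all genes (0.818% higher and 0.432% lower), and 2 of the 9 had an unadjusted p below 0.05, beside 1870 of the 15039. Without the replicate block, which takes the centred values for 8 independent libraries, 3 of the 9 were called, again *Gpc1*, *Gpc3* and *Sdc2*, beside 21.5% of all genes. The study, in its own analysis at an FDR of 0.1 or less, counted *Gpc3* among its differentially expressed genes. That analysis was not repeated here. The median difference of the 9 members was 0.0017, and over all genes it was 0.00086. The median of the family thus lay near 0, with 5 members of mean difference above 0 and 4 below. In the single pairs, 5, 4, 5 and 2 of the 9 members were above 0.

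**Figure D1:**
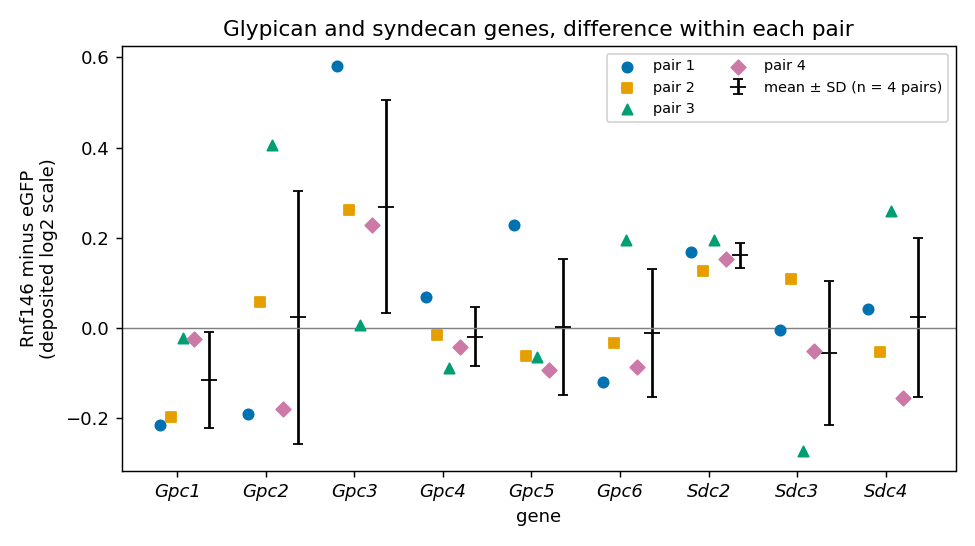
Difference between the Rnf146 and the eGFP library (deposited log2 scale, vertical axis) for each of the 9 genes (horizontal axis). Points stand for the 4 pairs and bars for the mean ± SD. *Gpc3* and *Sdc2* lie above 0 and *Gpc1* below 0 in all 4 pairs, and the points of *Sdc2* lie closest together, between 0.13 and 0.19.

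The sequences upstream of these 3 genes are shown because they were the members with the same direction in every pair. Each is the 250 bases before the start of the canonical transcript in GENCODE vM39, read from GRCm39 on the gene's strand. Capitals mark CTTTG and its reverse complement CAAAG, the core letters recognized by TCF/LEF factors, the DNA-binding partners of β-catenin. *Gpc1* (chromosome 1, 92758876 to 92759125, plus strand) had 1 match, *Gpc3* (chromosome X, 51703138 to 51703387, minus strand) had 2 and *Sdc2* (chromosome 15, 32920449 to 32920698, plus strand) had 0.
Gpc1: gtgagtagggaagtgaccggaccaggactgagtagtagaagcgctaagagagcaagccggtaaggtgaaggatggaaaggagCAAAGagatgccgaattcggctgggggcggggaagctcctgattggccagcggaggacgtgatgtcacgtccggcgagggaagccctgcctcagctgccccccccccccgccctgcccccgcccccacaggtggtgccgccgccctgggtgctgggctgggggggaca
Gpc3: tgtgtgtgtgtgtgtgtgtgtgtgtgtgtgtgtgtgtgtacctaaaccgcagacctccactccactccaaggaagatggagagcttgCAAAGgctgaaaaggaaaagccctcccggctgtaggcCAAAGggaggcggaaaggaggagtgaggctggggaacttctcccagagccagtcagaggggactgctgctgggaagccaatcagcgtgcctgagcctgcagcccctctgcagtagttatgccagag
Sdc2: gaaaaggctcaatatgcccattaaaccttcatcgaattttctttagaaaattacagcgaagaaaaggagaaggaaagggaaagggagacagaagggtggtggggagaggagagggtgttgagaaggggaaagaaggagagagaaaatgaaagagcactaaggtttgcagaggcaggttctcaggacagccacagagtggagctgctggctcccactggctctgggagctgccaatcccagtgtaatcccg

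Among the 21770 upstream regions of protein-coding genes, 49.3% held at least 1 match, and 3 of the 9 members did, the other being *Sdc4* with 2. The motif was thus present upstream of the gene that was lower in all pairs and of 1 of the 2 that were higher. *Sdc2* had 3 CG dinucleotides in this window and *Gpc3* had 4, against a median of 8 over all regions. *Gpc1* had 15. A match of 5 letters is a description of the sequence and not a binding site.

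*Gpc3* encodes a glypican that modulates Wnt and Hedgehog signaling during growth. The gene spans bases 51361303 to 51703137 of chromosome X (GRCm39, minus strand). Its values in the eGFP libraries 1 to 4 were 8.55, 8.71, 8.84 and 8.73, and in the Rnf146 libraries they were 9.13, 8.97, 8.85 and 8.96. The lowest Rnf146 value, in replicate 3, thus lay just above the highest eGFP value. The centring places these 2 values in the same pair for every gene. The difference of pair 3 was 0.0061, while the other pairs differed by 0.58, 0.26 and 0.23. Its mean difference of 0.27 ± 0.24 (SD, n = 4 pairs) was the largest of the family and larger in size than that of 97.7% of all genes, but its SD also exceeded that of 93.4% of the 1000 genes nearest in level. Leaving out pair 1 lowered the mean from 0.27 to 0.16, and leaving out pair 3 raised it to 0.36. *Gpc3* was weakly expressed, at about 143 estimated normalized counts. Transformed back to counts, the Rnf146 to eGFP ratios were 2.96, 1.61, 1.01 and 1.52 in pairs 1 to 4.

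*Gpc4*, the neighbor of *Gpc3* on chromosome X, encodes a glypican that astrocytes release and that promotes the formation of excitatory synapses. The gap between both genes is 107 kb and holds no other protein-coding gene. The differences of *Gpc4* were 0.068, -0.017, -0.089 and -0.043, and they averaged -0.020 ± 0.066 (SD, n = 4 pairs). The difference of *Gpc4* was thus smaller in size than its spread, and its groups overlapped.

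*Gpc1*, the main glypican of adult neurons, lies on chromosome 1 (GRCm39, 92759062 to 92792113, plus strand). Its values were 11.37, 11.36, 11.27 and 11.27 in the eGFP libraries and 11.15, 11.16, 11.25 and 11.25 in the Rnf146 libraries. The groups did not overlap, although the gap was narrow in pairs 3 and 4. The pair differences were -0.22, -0.20, -0.022 and -0.024, and their mean of -0.12 ± 0.11 (SD, n = 4 pairs) was similar in size to the spread. At about 2059 estimated normalized counts, the corresponding ratios were 0.838 and 0.850 in pairs 1 and 2 and 0.982 and 0.980 in pairs 3 and 4. The gene overlaps *Ankmy1* and other genes on the opposite strand.

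The remaining glypicans differed between pairs more than between groups. *Gpc2*, which encodes a glypican of developing neurons, had differences of -0.19, 0.058, 0.41 and -0.18. Its mean was 0.023 ± 0.28 (SD, n = 4 pairs), and its SD was above that of 96.4% of the 1000 genes nearest in level. It was also weakly expressed, at about 106 estimated normalized counts, and pair 3 alone stood at a ratio of 2.35, against 0.673 and 0.687 in pairs 1 and 4.

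*Gpc5* and *Gpc6* are very long genes, spanning 1433 kb and 1054 kb, that follow each other on chromosome 14 with a gap of 400.1 kb. *Gpc6* encodes another astrocyte-secreted glypican that promotes excitatory synapses. The differences of *Gpc5* were 0.23, -0.064, -0.064 and -0.094, so that pair 1 stood apart from 3 pairs that lay close together just below 0. Those of *Gpc6* were -0.12, -0.034, 0.19 and -0.088, with pair 3 as the only one above 0. The means were 0.0017 ± 0.15 for *Gpc5* and -0.012 ± 0.14 for *Gpc6* (SD, n = 4 pairs), both far below the spread. The differences of these neighbors thus had opposite signs in pairs 1 and 3 and the same sign in pairs 2 and 4.

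Among the syndecans, *Sdc2* was the most even member of the family. It encodes a syndecan that takes part in dendritic spine maturation and is also made by endothelial and other non-neuronal cells. It lies on chromosome 15 (GRCm39, 32920699 to 33035213, plus strand). Its values were 10.53, 10.55, 10.51 and 10.53 in the eGFP libraries and 10.69, 10.67, 10.71 and 10.69 in the Rnf146 libraries. The groups were well apart, with differences of 0.17, 0.13, 0.19 and 0.15. The mean of 0.16 ± 0.028 (SD, n = 4 pairs) was well above its SD, and only 2.2% of the 1000 genes nearest in level had a smaller SD. It stayed between 0.15 and 0.17 with each pair left out in turn. At about 1180 estimated normalized counts, the ratios were 1.16, 1.12, 1.19 and 1.15 in pairs 1 to 4.

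*Sdc3* encodes the syndecan of axons, a receptor for pleiotrophin. Its differences were -0.0048, 0.11, -0.27 and -0.052, and they averaged -0.056 ± 0.16 (SD, n = 4 pairs). *Sdc4*, which encodes a syndecan of focal adhesions found in astrocytes, had differences of 0.042, -0.053, 0.26 and -0.16 and a mean of 0.023 ± 0.18 (SD, n = 4 pairs). Pair 3 was the extreme pair of both genes, the lowest of *Sdc3* and the highest of *Sdc4*, and the groups of both overlapped.

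Levels were compared per kilobase of the canonical transcript, on the scale of estimated normalized counts. *Sdc3* had the highest level, with 836 per kb (mean of the 8 libraries), followed by *Sdc4* with 353, *Sdc2* with 319, *Gpc5* with 315 and *Gpc1* with 256. The other glypicans were lower, with 56.0 for *Gpc3*, 52.8 for *Gpc4*, 41.1 for *Gpc2* and 27.9 for *Gpc6*. In the eGFP libraries, the range of *Gpc5* (279 to 330) overlapped those of its neighbors in this order, *Sdc2* (291 to 301) and *Gpc1* (258 to 280), whereas *Sdc4* (311 to 379) lay above *Sdc2*. The range of *Gpc3* (29.8 to 54.2) overlapped that of *Gpc4* (50.4 to 56.0), and *Gpc2* (25.3 to 48.8) overlapped *Gpc6* (23.6 to 30.7) but lay below *Gpc4*. In the Rnf146 libraries, *Gpc3* (54.8 to 88.1) and *Gpc4* (49.6 to 55.3) overlapped only at their ends. *Sdc3* lay above all other members, and *Gpc1* above the 4 lower glypicans, in both groups. The centring has removed part of the spread between libraries from these ranges, and the length of the canonical transcript is an assumption where a gene uses several isoforms.

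**Figure D2:**
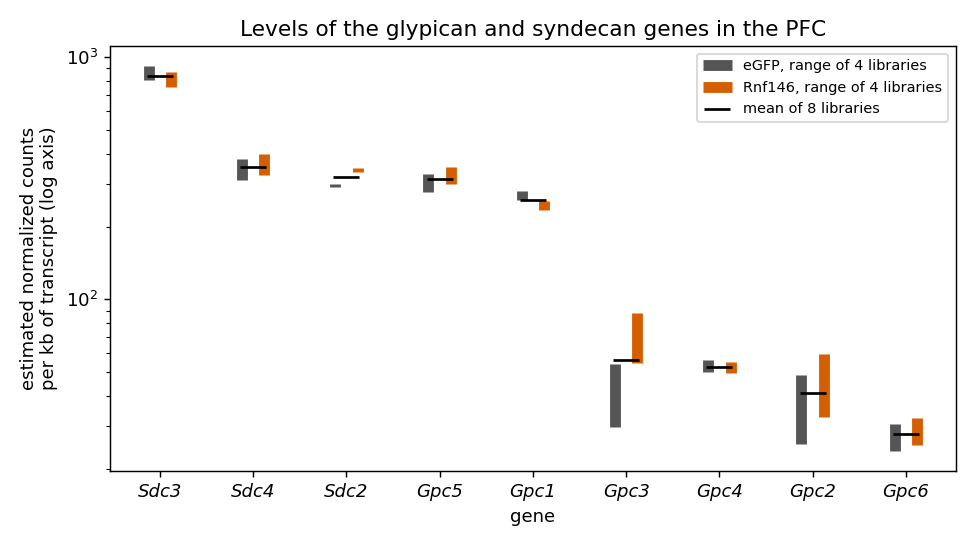
Estimated normalized counts per kb of canonical transcript (log axis) for the 9 genes, ordered by level. Bars span the 4 libraries of each group and the black marks are the mean of the 8 libraries. *Sdc3* stands highest at 836 per kb and *Gpc6* lowest at 27.9, and the eGFP and Rnf146 bars do not overlap for *Gpc1*, *Gpc3* and *Sdc2*.

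The genes that build, edit and bind heparan sulfate were read from 7 lists in the same fit. Of 88 listed genes, 82 had values and the others were not analysed here. Only *Spock3* was called, 1 of 82 or 1.22%, beside 1.25% of all genes. By unadjusted p below 0.05 there were 17 of the 82 (20.7%, beside 12.4% of all genes), and without the replicate block 25 were called (30.5%, beside 21.5% of all genes). The same direction in all 4 pairs was seen in 26 of the 82 genes (31.7%), 16 higher and 10 lower, beside 20.6% of all genes. The median difference of the 82 genes was 0.017.

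**Figure D3:**
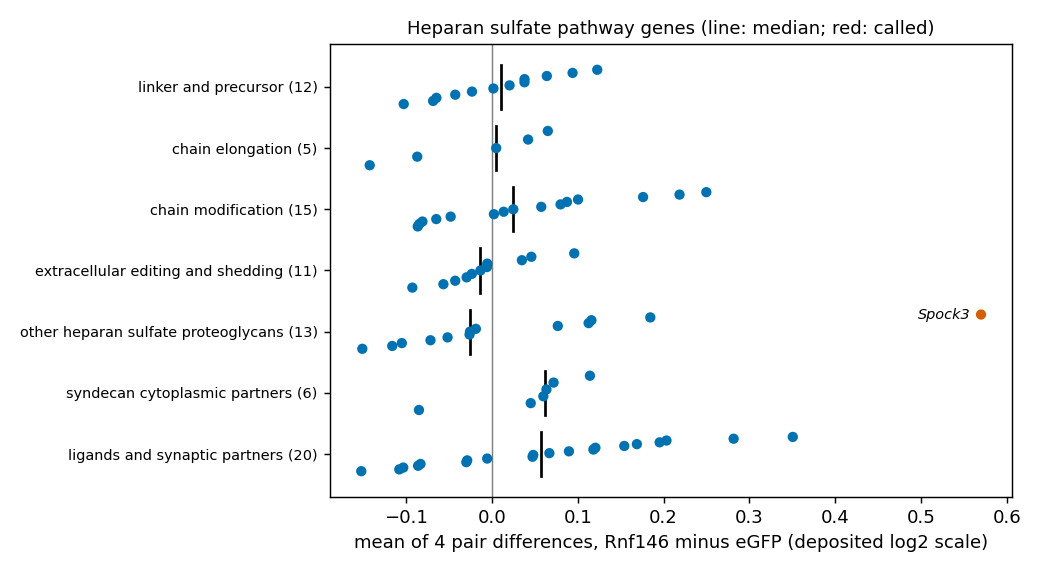
Mean of the 4 pair differences (deposited log2 scale, horizontal axis) for each measured gene of the 7 heparan sulfate lists, with the number of genes in brackets. Vertical lines are list medians, which lie between -0.026 and 0.062, and red marks the called gene, *Spock3*, at 0.57.

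In the synthesis of the chain, 0 genes were called in the lists of the linker and its precursors (12 of 12 genes measured), of chain elongation (5 of 5) and of chain modification (15 of 16). Their medians were 0.011, 0.0050 and 0.025. *B3gat3*, the glucuronyltransferase that completes the linker, had a difference of -0.10 ± 0.054 (SD, n = 4 pairs; adjusted p = 0.400 from limma). *Papss1*, which makes the sulfate donor, and *Fam20b*, the xylose kinase of the linker, had 0.064 and 0.038. *Extl1*, a glycosyltransferase of the exostosin family that elongates the chain, had -0.14 ± 0.071 and was below 0 in all 4 pairs (adjusted p = 0.269 from limma). Among the modifying enzymes, *Hs3st5*, a 3-O-sulfotransferase, had the largest difference of those with the same direction in all pairs, at 0.18 ± 0.11 (adjusted p = 0.231 from limma). *Glce*, the epimerase, had 0.087 and *Hs6st1*, a 6-O-sulfotransferase, -0.081. The 7 genes named here were chosen for having the same direction in all 4 pairs, and their sizes were at or below 0.18. *Hs6st2*, with the highest mean of these lists at 0.25, was mixed between pairs.

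Of the genes for editing and shedding outside the cell, 11 of 14 were measured, and 0 of them had the same direction in all 4 pairs. Their differences ran from -0.093 for *Notum* to 0.096 for *Gpld1*, a phospholipase that cuts GPI anchors, and 0 were called. Both genes are named as the ends of this range, a choice made once the values were known.

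Among 13 other heparan sulfate proteoglycans, all measured, 1 was called. *Spock3* encodes testican-3, a secreted proteoglycan of the brain. Its differences were 0.35, 0.97, 0.43 and 0.53, and the mean was 0.57 ± 0.28 (SD, n = 4 pairs), for which limma gave an adjusted p of 0.045. It was higher in all 4 pairs and most so in pair 2. Without pair 4 the mean was 0.58 and the adjusted p from limma rose to 0.241, in a fit that called 14 genes among all genes. Without pair 2 the mean was 0.44, with an adjusted p of 0.075 from limma. *Col18a1*, a basement membrane collagen with heparan sulfate chains, had 0.37, 0.16, 0.10 and 0.10 (adjusted p = 0.233 from limma). *Cd44*, a receptor for hyaluronan, had a mean of -0.12 ± 0.071 (adjusted p = 0.355 from limma).

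Cytoplasmic partners of the syndecans and ligands or partners at the cell surface had 0 called genes, with 6 of 7 and 20 of 21 genes measured and medians of 0.062 and 0.058. *Prkca*, the kinase bound by syndecan-4, had 0.11 ± 0.058, and *Sdcbp*, which encodes the syndecan adaptor syntenin, had 0.072 ± 0.090 (SD, n = 4 pairs). *Slit2*, an axon guidance ligand that binds heparan sulfate, was higher by 0.17, 0.22, 0.19 and 0.23, with an adjusted p of 0.104 from limma. *Fgf1*, a growth factor that needs heparan sulfate to bind its receptor, had 0.20 ± 0.13 (adjusted p = 0.214 from limma). *Unc5d* encodes a netrin receptor of the UNC5 family, whose members bind glypican-3. Its differences were 0.53, 0.26, 0.082 and 0.25 in pairs 1 to 4, beside 0.58, 0.26, 0.0061 and 0.23 for *Gpc3*. Both genes were highest in pair 1 and lowest in pair 3, and whether they are linked was not tested. *Unc5d* averaged 0.28 ± 0.19 (SD, n = 4 pairs), and limma gave it an adjusted p of 0.153. *Unc5b*, with the highest mean among the ligands and partners at 0.35, was mixed between pairs. The lowest mean was that of *Fgfr3* at -0.15, and 8 of the 20 measured genes had a mean below 0.

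Marker genes of other cell types and regions moved between the groups as well, and their part in the differences above was not tested. Their called counts stand beside 0.818% of all genes called higher and 0.432% called lower. The 6 measured genes of the septum and basal forebrain list were all called higher, with list means of 0.69, 0.81, 0.30 and 0.65 in pairs 1 to 4. The list had its lowest value in pair 3, as *Gpc3* did, but its highest in pair 2. The mean value of this list was 9.32 to 9.57 in the eGFP libraries and 9.87 to 10.1 in the Rnf146 libraries, and 4 of its 10 genes, among them the cholinergic markers *Chat* and *Slc18a3*, had no values. All 12 striatal genes were measured, with list means of -0.076, 1.18, 0.64 and 0.28, and 1 was called. Its mean value was 9.83 to 10.5 in the eGFP libraries and 10.4 to 11.0 in the Rnf146 libraries. *Spock3* was, like this list, highest in pair 2 and lowest in pair 1.

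The cortical excitatory list was lower in all 4 pairs, by -0.19, -0.18, -0.037 and -0.13, with 2 of 11 genes called lower. Of its 11 genes, 8 had a mean below 0, and 6 were mixed between pairs. Its mean value was 11.2 to 11.3 in the eGFP and 11.1 to 11.2 in the Rnf146 libraries. *Gpc1* likewise had its larger decreases in pairs 1 and 2, but in pair 4 it stood at -0.024 and the list at -0.13. The microglia list was also below 0 in all 4 pairs (-0.18, -0.27, -0.099 and -0.14), with 1 of 9 genes called lower. The oligodendrocyte list ran from -0.14 in pair 1 to 0.90 in pair 3, with 0 of 10 genes called, and the fibroblast list of meninges and vessels was above 0 in pair 3 only (0.13). *Gpc2*, *Gpc6*, *Sdc2* and *Sdc4* had their highest difference in the same pair, as did *Gpc1* with -0.022. The oligodendrocyte precursor list (0 of 7 called), the interneuron list (3 of 9 called higher) and the ependyma list (2 of 3 measured genes called higher) were highest in pair 3 as well, at 0.21, 0.16 and 0.41. Only 3 of the 7 ependyma genes had values. Their mean value was low, at 8.71 to 8.81 in the eGFP and 9.02 to 9.13 in the Rnf146 libraries. The called interneuron genes were *Gad1*, *Gad2* and *Slc32a1*, which mark GABAergic neurons of any region, while the other 6 had means below 0 and the list median was -0.057. The astrocyte list stayed between -0.072 and 0.055 and the endothelial list between -0.089 and 0.083, with 0 genes called in both. They too were highest in pair 3, as were the cortical excitatory and microglia lists. Only the striatal list and the septum and basal forebrain list were highest in another pair, pair 2. A highest value in pair 3 thus singles out no cell type. No marker list had its highest mean in pair 1, where *Gpc3* was highest, although the septum and basal forebrain list stood at 0.69 there. Within that list, *Zic2* (0.68, 0.51, 0.33 and 0.59) and *Zic4* (0.47, 0.42, 0.11 and 0.37) were, like *Gpc3*, highest in pair 1 and lowest in pair 3. Its genes *Zic1*, *Trpc4*, *Dlk1* and *Ngfr* were highest in pair 2 and also lowest in pair 3. These genes were compared once their values were known. Whether the marker lists and the members are linked was not tested.

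**Figure D4:**
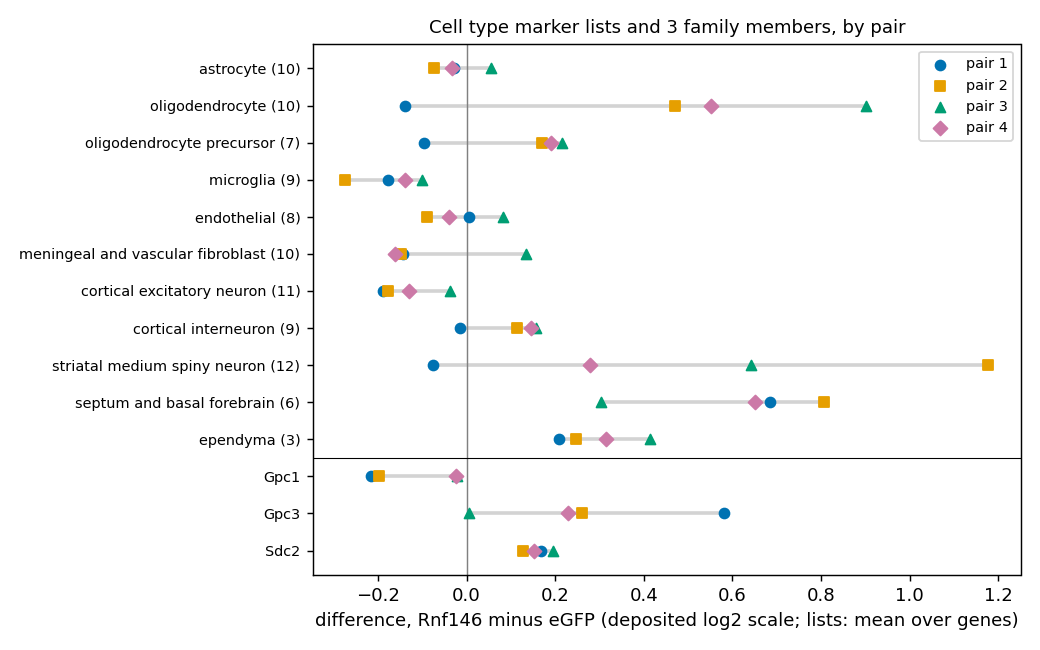
Mean difference of each marker list in the 4 pairs (deposited log2 scale, horizontal axis, number of genes in brackets), with *Gpc1*, *Gpc3* and *Sdc2* below the line. The striatal list spans -0.076 to 1.18 and the oligodendrocyte list -0.14 to 0.90, whereas *Sdc2* stays between 0.13 and 0.19.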

How the data were processed

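RNA from the PFC of 4 Rnf146 and 4 eGFP libraries was sequenced from a stranded mRNA kit. Per the study's methods, the authors used Cutadapt for trimming and Salmon 1.9.0 for transcript abundance (GENCODE vM30, GRCm39). They deposited values described as normalized counts, which are log2 values centred within same-numbered pairs (largest spread of the pair sums 1.4e-13). The normalization and transformation are not given in the sources used here, although DESeq2 is among the tools named in the submitters' processing notes. No count test was run, and the depth is unknown.

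Differences were fitted on all 15039 genes with limma 3.58.1 in R 4.3.3 (trend, replicate number as a block, Benjamini-Hochberg adjustment) with calls made at an adjusted p up to 0.1. Libraries were paired by the replicate numbers of their labels and by the centring, which fixes the correlation within pairs. The procedure was tested on simulated data in which genes varied independently, so that test does not cover genes that vary together. Estimated counts were read from a variance-stabilizing curve fitted to the published mean counts of 294 genes (median absolute residual 0.0068). Positions and lengths came from GENCODE vM39. Python 3.11.15 with numpy 2.4.6 and pandas 2.3.3 was used for the other steps.

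The members and lists were chosen with earlier results of these data known. Named genes were the 9 members, *Rnf146*, and from each pathway list the called genes and the 3 largest with the same direction in all pairs. The alternatives tried are given in the closing section.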

Additional observations from a re-analysis of the deposited data

Results flagged for a closer look

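Of 25 genes and 18 lists checked, 5 had 1 pair whose gap to the nearest other pair took more than 0.829 of the whole range. Chance flags about 1 in 20 such groups. *Gpc5* had a difference of 0.23 in pair 1, whereas the other 3 pairs lay between -0.094 and -0.064. *Fam20b* had 0.074 in pair 1, against 0.023 to 0.029. The list of extracellular editing and shedding had a mean difference of 0.026 in pair 4, against -0.022 to -0.016. The oligodendrocyte precursor markers had -0.095 in pair 1, against 0.17 to 0.21, and the fibroblast markers had 0.13 in pair 3, against -0.16 to -0.14.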

How the results depend on the processing

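The replicate block decided most calls. Without it, 1655 genes were called higher and 1571 lower, against 123 and 65, and 3 of the 9 family members, 3 linker and precursor genes, 1 elongation gene, 4 modification genes, 6 other proteoglycans, 1 cytoplasmic partner and 10 ligands or partners were called. At an adjusted p of 0.05, 67 genes were called higher and 13 lower. When single pairs were left out, the counts ran from 14 to 302 higher and from 0 to 119 lower, lowest without pair 4 and highest without pair 1, and 0 members were called in each case. The called counts then ran from 0 to 1 for chain modification (*Hs6st2*, without pair 3), from 0 to 1 for other proteoglycans (0 without pair 4) and from 0 to 3 for ligands and partners (*Slit2*, *Fgf1* and *Unc5b*, without pair 1). With median centring, 1 ligand, *Slit2*, was called. *Unc5b*, *Fgfr3* and *Hs6st2* were chosen after their values were seen. On the scale of log2 normalized counts, the mean difference was 0.72 for *Gpc3* and 0.21 for *Sdc2*. When single pairs were left out, the mean differences of *Gpc1*, *Gpc3* and *Sdc2* kept their sign, between -0.15 and -0.082, 0.16 and 0.36, and 0.15 and 0.17. The mean differences of *Gpc2*, *Gpc4*, *Gpc5*, *Gpc6*, *Sdc3* and *Sdc4* changed sign when some pair was left out. A minimum mean of 50 counts, quantile normalization, no variance trend and robust variances left the called counts of the 7 heparan sulfate lists and of the family as they were. Depth limits are unknown, since no counts were used.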
